A study of Mus musculus with 3 samples.

Results

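Complement components and receptors were followed in mouse bone marrow-derived macrophages (BMDMs) through 9 genes, C1qa, C1qb, C1qc, C3, C4b, Cfb, Serping1, C3ar1, and C5ar1. They were chosen by name, as the probes whose gene name on the array equals one of these symbols, and all 9 were among the 33597 genes measured on all arrays, with 11 probes among 52752. BMDMs were grown from bone marrow of C57BL/6J mice in M-CSF (macrophage colony-stimulating factor), supplied as conditioned medium of L929 cells that carried a human M-CSF plasmid. They were stimulated for 20 h with CpG, with IFN-γ and αIL-10R (IFN-γ + αIL-10R, labelled IFN-g+IL-10RB), or with all of these agents (Triple), and total RNA was hybridized in 1 colour to 1 Agilent array per condition. CpG is a DNA that stimulates TLR9, and the antibody αIL-10R keeps IL-10 from its receptor. All groups shared the strain, the culture in M-CSF, and the 20 h, and no array of unstimulated BMDMs is analysed here. With 1 array per condition no difference has a replicate check and no p-value is given, and array, culture, and condition cannot be told apart.

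Complement is a cascade of plasma proteins that tags particles for uptake by phagocytes. In the classical pathway C1q binds a target and its partner proteases C1r and C1s cleave C4 and C2, in the alternative pathway factor B forms the convertase, and both routes cleave C3. Macrophages are a known source of C1q and also make C3, factor B, and properdin, while their receptors read the cleavage fragments.

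The 9 genes did not share a pattern. The C1q chains were bright on every array, and each stayed within 2-fold across conditions. C3 and Cfb were highest under Triple, 10.4-fold and 2.44-fold against IFN-γ + αIL-10R and 3.87-fold and 5.30-fold over CpG. C4b was highest under IFN-γ + αIL-10R, 35.8-fold over CpG, and C5ar1 was highest under CpG. The plot of signals by array shows the 9 genes side by side.

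**Figure D1:**
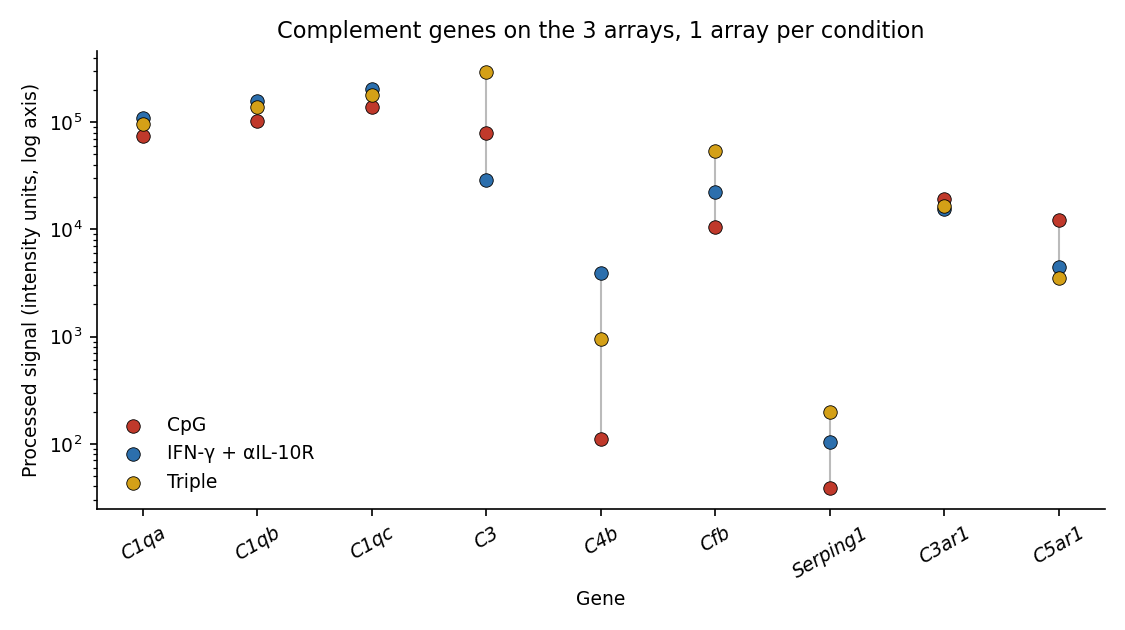
Processed signal (intensity units, log axis) of each complement gene on the CpG, IFN-γ + αIL-10R, and Triple arrays, 1 point per array and a grey line over the range of the gene. The points of C1qa, C1qb, C1qc, and C3ar1 lie close together, C3 spans 29040 to 296775, and C4b spans 112 to 3924; heights of different genes come from different probes and are not comparable.

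The values are processed signals, in linear intensity units after background subtraction by the scanner software, and are not scaled between arrays. Each is the deposited value of the spot or, where a probe has several spots (among the 9 genes, the C1qc probe and the brightest C3 probe), the mean over usable spots taken on the log2 scale. Folds were taken after each array was scaled to its 75th percentile, which was 4550 (CpG), 4473 (IFN-γ + αIL-10R), and 4377 (Triple). Over 232 probes with replicate spots, the pooled SD (log2) was 0.08 for the CpG array, 0.08 for that of IFN-γ + αIL-10R, and 0.09 for that of Triple. A log2 fold between single spots therefore had a technical SD of 0.12 for Triple against IFN-γ + αIL-10R, 0.12 for Triple over CpG, and 0.11 for CpG against IFN-γ + αIL-10R, which leaves out differences between cultures. No spot was saturated, and a fold is called past 2-fold only where the higher signal was well above background by the scanner software.

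The 8 macrophage markers with a usable probe on all arrays, which include Csf1r and Adgre1, were well above background on each array, with summed signals of 616012 (CpG), 580157 (IFN-γ + αIL-10R), and 523048 (Triple). Of 3 mast cell markers none was well above background on any array, with sums of 21.7, 21.2, and 19.9 in the same order. The sums were 885, 278, and 184 for 5 B cell markers, 978, 1056, and 974 for 5 T cell markers, and 539, 326, and 481 for 4 fibroblast markers. Between 2 and 3 of the members of each of these 3 lists were well above background on an array, while Ms4a1, Pax5, Cd3d, Cd3g, Cd8a, and Pdgfra were not on any. The 5 dendritic cell markers summed to 36126, 38006, and 30095, almost all of it Siglech. The 6 neutrophil markers summed to 3495, 9363, and 4354, with Mpo, Ngp, and Ltf not well above background on any array. The highest sum came from Ly6g (555, 7699, and 2658), while Elane read 2839, 1615, and 1539, and Camp read 72.9, 17.5 (not well above background), and 139. In bulk RNA, fewer cells of a type and less RNA per cell cannot be told apart. Of the lists for the stimuli, the 6 IFN-γ response genes summed to 12565 under CpG, 387197 under IFN-γ + αIL-10R, and 607386 under Triple, and the 6 TLR response genes summed to 104013, 23610, and 306809.

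C1qa, C1qb, and C1qc encode the A, B, and C chains from which the target-binding molecule C1q is built. They are neighbours on chromosome 4 in the RefSeq gene order (C1qb, C1qc, C1qa), and each had its own probe on the minus strand. The probes of C1qa and C1qb are printed because the agreement of the chains rests on separate sequences. They are in lower case throughout, as no base of a probe is singled out.
C1qa probe (mm9, chr4:136452409-136452468, minus strand): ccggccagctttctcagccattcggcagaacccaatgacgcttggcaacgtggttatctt
C1qb probe (mm9, chr4:136436578-136436637, minus strand): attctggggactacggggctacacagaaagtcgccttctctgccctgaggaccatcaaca

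C1qa (NM_007572) read 73835 under CpG, 110391 under IFN-γ + αIL-10R, and 96050 under Triple. C1qb (NM_009777) had 101854, 157927, and 137456 in the same order. C1qc (NM_007574, probe at chr4:136445766-136445825) had 139896, 205633, and 179016. All 3 chains were thus lowest under CpG and highest under IFN-γ + αIL-10R, and Triple lay between.

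The C1qc probe was spotted 10 times on each array, of which 9, 10, and 9 spots were usable in the order above. The spots ranged from 134076 to 144958 under CpG, from 193390 to 213282 under IFN-γ + αIL-10R, and from 168813 to 186604 under Triple, with SDs of 0.04, 0.05, and 0.04 (log2). The usable spots of the 3 arrays did not overlap, over rows 4 to 363 of the array. Spots of 1 array share 1 RNA and are not replicates of a condition.

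As log2 folds, the chains moved together. In CpG against IFN-γ + αIL-10R they lay between −0.66 for C1qb and −0.58 for C1qc, at most 1.58-fold lower. In Triple over CpG they lay between 0.41 for C1qc and 0.49 for C1qb, and in Triple against IFN-γ + αIL-10R all 3 were −0.17, 1.12-fold lower. The last difference was 1.40 technical SD for C1qa, 1.39 for C1qb, and, with the replicate spots of C1qc, 4.26. It was between −0.30 (spike-in scaling) and −0.06 (75th percentile over all probes) under other scalings, in each case below 0, and none of the 9 folds of the chains was past 2-fold. The arrays therefore put the chains apart by amounts larger than the noise of spots in the comparisons that involve CpG, and by amounts near it for C1qa and C1qb between Triple and IFN-γ + αIL-10R.

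**Figure D2:**
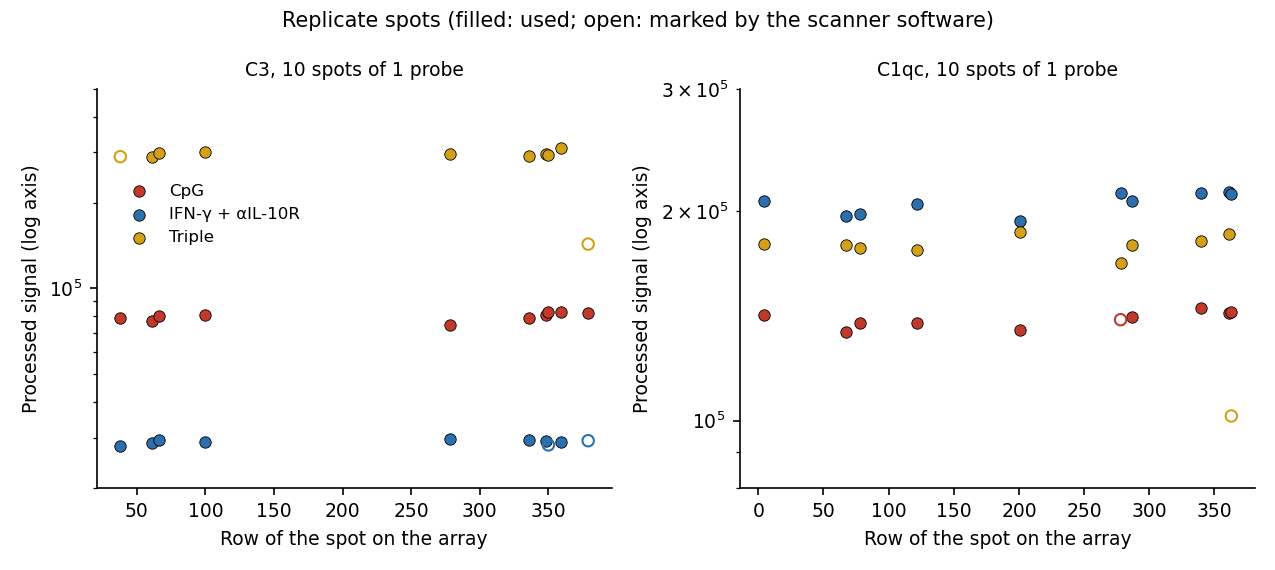
Processed signal (log axis) of each spot of the C3 probe (left) and of the C1qc probe (right) against the row of the spot on the array, with spots in use filled and spots marked as outliers open. The filled spots of the 3 arrays stay apart at every row for both genes, with C3 highest in Triple and C1qc highest under IFN-γ + αIL-10R; 1 open Triple spot of each gene at a high row is much dimmer than the others.

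RefSeq promoters (GRCm38.p6) were matched for 5 of the 9 genes, C1qb, C1qc, C3, C3ar1, and C5ar1. The promoters of C1qb and C1qc are printed because the chains moved together. The 250 bases before the start are given 5′ to 3′ on the strand of the gene, in lower case with matches to the searched motifs in capitals. The motifs, searched on both strands, were GAS (TTCNNNGAA), the ISRE core (GAAANNGAA), an NF-kB core (GGANNTTCC), the PU.1 core (GAGGAA), C/EBP (TTGCNNAA), and the Maf motif (TGCTGA), where N is any base.
C1qb promoter (GRCm38.p6, chr4:136886201-136886450, minus strand): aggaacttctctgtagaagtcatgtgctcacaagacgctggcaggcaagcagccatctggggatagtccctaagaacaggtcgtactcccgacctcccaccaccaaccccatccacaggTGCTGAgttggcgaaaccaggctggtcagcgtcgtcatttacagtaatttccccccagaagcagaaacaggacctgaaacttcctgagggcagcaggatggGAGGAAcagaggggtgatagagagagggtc
C1qc promoter (GRCm38.p6, chr4:136892915-136893164, minus strand): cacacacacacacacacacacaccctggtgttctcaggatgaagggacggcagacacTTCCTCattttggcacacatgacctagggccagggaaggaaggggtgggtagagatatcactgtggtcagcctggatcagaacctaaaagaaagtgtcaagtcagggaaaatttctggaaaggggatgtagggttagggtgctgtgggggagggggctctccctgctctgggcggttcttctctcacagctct

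Both promoters held 1 PU.1 core, from base 30 to base 25 before the start of C1qb on the strand of the gene and from base 193 to base 188 before the start of C1qc on the other strand, and 23.3% of the 32851 promoters in the table held it. The C1qb promoter also held a Maf motif from base 131 to base 126 (16.1% of all promoters). Neither held the GAS, ISRE, NF-kB, or C/EBP letters in this window. No matches overlapped in the promoters printed. A match of letters is a description of the sequence and does not show binding.

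By Euclidean distance of the log2 folds of Triple over CpG and against IFN-γ + αIL-10R, among 10551 named genes that every array measured well above background, the genes with the pattern most like the mean of the C1q chains were Ttc23 (distance 0.01), Tor1a (0.02), and Hcrtr1 (0.02). Of these, Tor1a read 13151, 19840, and 17110. Ttc23 (52.4, 78.3, and 67.9) and Hcrtr1 (32.45, 49.4, and 43.0) were dim, where the lowest signals well above background were 23.8, 26.7, and 26.3.

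C4b encodes complement C4, the substrate of C1s, whose cleaved form attaches to targets. Its 1 probe (NM_009780, chr17:34865328-34865387, minus strand) had a signal of 112 under CpG, 3924 under IFN-γ + αIL-10R, and 949 under Triple, all well above background. C4b was thus lowest under CpG, and adding CpG to IFN-γ + αIL-10R went with a lower signal that still exceeded that of CpG alone. The log2 fold was −5.16 in CpG against IFN-γ + αIL-10R (35.8-fold lower, rank 32 of 1068 genes past 2-fold down), −2.02 in Triple against IFN-γ + αIL-10R (4.04-fold lower), and 3.14 in Triple over CpG (8.84-fold higher, rank 146 of 1370). With normexp background correction the folds involving CpG were smaller, −4.50 and 2.59. Mouse C4a is a near-identical copy of C4b and has no probe of its own name among the genes measured here, so which of the copies was read is uncertain. Markers of other cells did not share 1 order. Ly6g and the dendritic cell marker Clec9a (5.35, not well above background, 1963, and 152) had the order of C4b, Elane was highest under CpG, Camp, Zbtb46 (25.1, not well above background, 36.3, and 133), and Xcr1 (6.35 and 6.80, both not well above background, and 60.7) were highest under Triple, and Siglech was within 2-fold. Their part in the values of C4b was not tested.

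C3 encodes the central component, whose fragment C3b coats targets for uptake. The brightest C3 probe (NM_009778, chr17:57343416-57343475, minus strand) had a signal of 79788 under CpG, 29040 under IFN-γ + αIL-10R, and 296775 under Triple. Triple thus exceeded both other arrays, and CpG exceeded IFN-γ + αIL-10R. The log2 fold was 3.38 in Triple against IFN-γ + αIL-10R (10.4-fold, rank 117 of 1187 genes past 2-fold up), 1.95 in Triple over CpG (3.87-fold, rank 468 of 1370), and 1.43 in CpG against IFN-γ + αIL-10R (2.70-fold, rank 499 of 925).

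Replicate spots and a further probe gave the same order for C3. The spots ranged from 74383 to 82723 under CpG (10 spots, SD 0.05 on the log2 scale), from 27984 to 29715 under IFN-γ + αIL-10R (8 usable spots, SD 0.03), and from 289592 to 311781 in Triple (8 usable spots, SD 0.03), over rows 38 to 379. The further probe, which lies upstream in the transcript, had signals of 46220, 17837, and 188176 and log2 folds of 3.43, 2.08, and 1.35 in the order of the comparisons above. Its sequence is printed because the increase of C3 then rests on separate stretches of the mRNA, with the C3 promoter below it.
C3 probe (mm9, chr17:57343678-57343737, minus strand): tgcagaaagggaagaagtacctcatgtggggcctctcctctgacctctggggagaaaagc
C3 promoter (GRCm38.p6, chr17:57228137-57228386, minus strand): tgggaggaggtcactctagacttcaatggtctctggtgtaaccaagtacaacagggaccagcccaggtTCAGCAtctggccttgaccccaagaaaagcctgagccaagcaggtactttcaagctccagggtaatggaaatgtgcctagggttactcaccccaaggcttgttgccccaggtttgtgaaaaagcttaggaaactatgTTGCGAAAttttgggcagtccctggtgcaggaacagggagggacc

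The capitals in the C3 promoter mark a Maf motif on the other strand from base 182 to base 177 before the start and a C/EBP match from base 45 to base 38 (9.56% of all promoters). The GAS, ISRE, NF-kB, and PU.1 letters were not in this window, and 7.02%, 7.13%, and 3.59% of all promoters held the first 3 of them. The genes with the pattern most like that of C3 were Cflar (distance 0.17), an inhibitor of caspase-8 activation with signals of 3023, 1088, and 10288, then Armcx3 and Gpr18 (0.28 each).

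Cfb encodes factor B, the protease of the alternative pathway convertase. It lies next to C2 in the RefSeq gene order on chromosome 17. Its probe, printed because its span of 357 bases on the genome for 60 bases of sequence shows that it crosses an exon junction, read 10531 under CpG, 22464 under IFN-γ + αIL-10R, and 53649 under Triple.
Cfb probe (mm9, chr17:34993502-34993858, minus strand): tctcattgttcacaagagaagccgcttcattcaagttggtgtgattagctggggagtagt

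Cfb (NM_008198) was thus lowest under CpG, as C4b was, and highest under Triple, as C3 was. The log2 fold was 1.29 in Triple against IFN-γ + αIL-10R (2.44-fold), 2.40 in Triple over CpG (5.30-fold, rank 296 of 1370), and −1.12 in CpG against IFN-γ + αIL-10R (2.17-fold lower, rank 907 of 1068). The last lay about 1 technical SD from the 2-fold threshold. The genes with the pattern most like that of Cfb were Cish (distance 0.09), a feedback inhibitor of cytokine signaling, Nxpe3 (0.14), and Ggct (0.20).

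Serping1 encodes the C1 inhibitor, a serpin that inactivates C1r and C1s. Its probes lay closest to the background of the arrays. Its brighter probe (NM_009776, chr2:84605663-84605722, minus strand) had a signal of 38.9 under CpG, 104 under IFN-γ + αIL-10R, and 198 under Triple, where 23.8, 26.7, and 26.3 were the lowest signals called well above background on the same arrays. The order was that of Cfb. The log2 fold was 2.41 in Triple over CpG (5.30-fold), −1.45 in CpG against IFN-γ + αIL-10R (2.72-fold lower), and 0.96 in Triple against IFN-γ + αIL-10R (1.95-fold), within 1 technical SD of the threshold.

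The other Serping1 probe read 5.53 under CpG, not well above background, 46.2 under IFN-γ + αIL-10R, and 93.4 under Triple. It is printed because its 60 bases span 1507 bases of the genome and so cross an exon junction. It gave 2.06-fold in Triple against IFN-γ + αIL-10R, at least 4.09-fold in Triple over CpG, and at least 1.98-fold lower in CpG than in IFN-γ + αIL-10R. The order of the arrays was thus the same on both probes. The sizes depended on how dim signals were treated. Normexp background correction gave log2 folds of 1.41 in Triple over CpG and −0.75 in CpG against IFN-γ + αIL-10R, the latter inside 2-fold, and the mean over both probes gave 3.27 and −2.27.
Serping1 probe (mm9, chr2:84605968-84607474, minus strand): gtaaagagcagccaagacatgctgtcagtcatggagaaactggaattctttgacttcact

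The receptors differed from each other. C3ar1 encodes the receptor for the C3 fragment C3a, and its probe (NM_009779, chr6:122798222-122798281, minus strand) had 19366 under CpG, 15454 under IFN-γ + αIL-10R, and 16417 under Triple. Its log2 folds were 0.12 in Triple against IFN-γ + αIL-10R (−0.02 under spike-in scaling), −0.18 in Triple over CpG, and 0.30 in CpG against IFN-γ + αIL-10R, which are 0.97, 1.47, and 2.64 technical SDs. Triple and IFN-γ + αIL-10R did not differ beyond the noise of spots, and no fold of C3ar1 was past 2-fold.

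C5ar1 encodes the receptor for the C5 fragment C5a, a chemoattractant of phagocytes, and lies next to C5ar2 on chromosome 7. Its probe (NM_001173550, chr7:16832243-16832302, minus strand) had 12130 under CpG, 4462 under IFN-γ + αIL-10R, and 3538 under Triple. CpG thus stood above both arrays with IFN-γ. The log2 fold was 1.42 in CpG against IFN-γ + αIL-10R (2.67-fold higher, rank 523 of 925), −1.72 in Triple over CpG (3.30-fold lower, rank 583 of 1529), and −0.30 in Triple against IFN-γ + αIL-10R, 2.50 technical SDs. The C5ar1 promoter held an ISRE core on the other strand from base 66 to base 58 before the start and a Maf motif from base 17 to base 12, and the C3ar1 promoter held a Maf motif from base 144 to base 139.

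**Figure D3:**
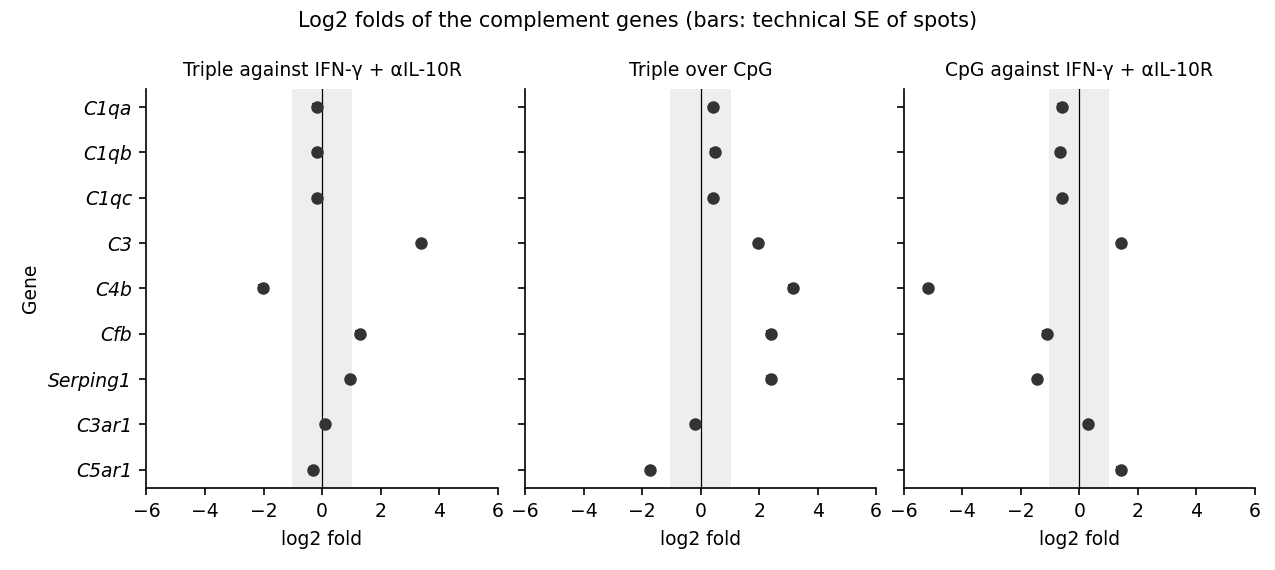
Log2 fold of each complement gene in Triple against IFN-γ + αIL-10R, Triple over CpG, and CpG against IFN-γ + αIL-10R, with bars of 1 technical standard error from replicate spots (hidden by the points, or nearly so) and a grey band from −1 to 1 that marks 2-fold. C3 lies right of the band in each comparison, C4b lies left of it in both comparisons that have IFN-γ + αIL-10R as the reference and right of it over CpG, and the C1q chains and C3ar1 stay within it.

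The comparisons ask which genes differ once CpG and IFN-γ + αIL-10R are combined. Counted over the 9 genes, 2 (C3 and Cfb) were past 2-fold up in Triple against IFN-γ + αIL-10R and 1 (C4b) was past 2-fold down, where 6.57% and 9.31% of the 18063 genes compared were past 2-fold up and down. In Triple over CpG, 4 (C3, C4b, Cfb, and Serping1) were up and 1 (C5ar1) was down, beside 7.47% and 8.34% of 18335 genes. In CpG against IFN-γ + αIL-10R, 2 (C3 and C5ar1) were up and 3 (C4b, Cfb, and Serping1) were down, beside 5.06% and 5.84% of 18280 genes. The median log2 fold of the 9 genes was −0.17, 0.49, and −0.61 in these comparisons, and that of all genes compared was −0.05, −0.06, and 0.00384. The share of the 9 genes past 2-fold was 33.3%, 55.6%, and 55.6%, and since each pair of comparisons shares an array, these counts are not independent. The 9 genes were chosen with earlier results of these data known, so the shares are not those of an independent list.

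The rest of the complement system was described with a list of 54 genes, of which 51 were measured. Of these, 25 were well above background on at least 1 array, 19 on all, and 26 on none. In at least 1 comparison 14 were past 2-fold, for which the share of all genes was not taken. Among those that could be compared, 4 of 23 were up and 5 down in Triple against IFN-γ + αIL-10R, beside 6.57% and 9.31% of all genes compared. In Triple over CpG, 6 of 25 were up and 5 down, beside 7.47% and 8.34%. In CpG against IFN-γ + αIL-10R, 3 of 24 were up and 5 down, beside 5.06% and 5.84%. The median log2 folds of the list were −0.21, −0.34, and 0.00251, and those of all genes compared were −0.05, −0.06, and 0.00384. The list was not moved as a whole to one side, and its groups differed. It too was chosen with earlier results of these data known.

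All 5 measured genes of the classical pathway other than C1q and C4b were past 2-fold up in Triple over CpG, beside 7.47% of all genes compared, with a median log2 fold of 1.94. Of these, C2 passed the threshold by less than 1 technical SD (log2 fold of 1.02, technical SD of 0.12). In Triple against IFN-γ + αIL-10R, 2 of the 5 were past 2-fold up, beside 6.57%, and in CpG against IFN-γ + αIL-10R 3 of the 4 that could be compared were past 2-fold down, beside 5.84%. C1ra, a C1r protease, had signals of 717 under CpG, 2139 under IFN-γ + αIL-10R, and 3964 under Triple, 5.74-fold higher in Triple than under CpG. C1s, the protease that cleaves C4 and C2, was not well above background under CpG (6.65) or IFN-γ + αIL-10R (30.8) and read 810 under Triple. It was at least 35.4-fold higher in Triple than under CpG. Against IFN-γ + αIL-10R it was 26.8-fold higher, the plain ratio to a signal that was not well above background and was not raised. C2, the partner of C4, had 139, 326, and 271, so that it was 2.03-fold higher in Triple than under CpG and 1.18-fold lower than under IFN-γ + αIL-10R. C1rb (109, 226, and 402) and C1rl (213, 301, and 772) were 3.83-fold and 3.77-fold higher in Triple than under CpG. C1ra and C1rb are close copies of each other, so that their probes may share targets, which was not tested.

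Of the alternative pathway, properdin (Cfp), which stabilizes the convertase, was bright and within 2-fold, with 153708, 104338, and 116690, while factor D (Cfd) was not well above background on any array. In the lectin pathway 1 of 8 genes, Fcna, was well above background (246, 271, and 186). Of the 7 terminal components only C8g was, with 167, 281, and 74.1, and its other probe (67.4, 102, and 84.9) was within 2-fold in Triple against IFN-γ + αIL-10R, so that the decrease of 3.71-fold on the first probe is uncertain. In Triple over CpG the log2 fold was −1.12 on the first probe and 0.39 on the other, so that this decrease is uncertain too.

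Among 19 regulators the membrane inhibitor Cd55, which speeds the decay of convertases, had the widest range. Its signal was 4362 under CpG, 6.04 under IFN-γ + αIL-10R, where it was not well above background, and 3694 under Triple, at least 161-fold higher under CpG and at least 142-fold higher under Triple. Its neighbour copy Cd55b, named Daf2 on the array, had 2405, 43.4, and 1648, and the probes of the copies may share targets. The other Cd55b probe was well above background only under CpG (53.0). Both genes were high where CpG was given. Cfhr2 had 722, 3146, and 1961 on the brighter probe and 45.7, 224, and 8.54, the last not well above background, on the other. The probes agreed that CpG was lower than IFN-γ + αIL-10R and differed on Triple. Cr1l and Cd59a were within 2-fold, and Clu was at the edge of background on each array.

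Of 10 receptors of complement fragments and C1q, 9 could be compared in Triple against IFN-γ + αIL-10R and 3 of them were past 2-fold down, beside 9.31% of all genes compared. In Triple over CpG, 3 of 10 were past 2-fold down, beside 8.34%, and none was up in either comparison by its brightest probe. C5ar2, the second receptor for C5a, had 898, 851, and 279, and was 2.98-fold lower in Triple than under IFN-γ + αIL-10R. Lrp1, which takes part in uptake of C1q-coated cells, had 15394, 12652, and 4754, 2.60-fold lower. Vsig4, a receptor for C3b, was dim, with 77.8, 64.3, and 10.3, the last not well above background, and was at least 2.39-fold lower. Itgam, the α chain of complement receptor CR3, had 26993, 10577, and 16377, 2.51-fold higher under CpG than under IFN-γ + αIL-10R. Its other probes gave log2 folds of 1.32 and 0.78 in that comparison. In Triple against IFN-γ + αIL-10R the brightest Itgam probe gave 0.66, and the other probes gave 1.16, which is past 2-fold up, and 0.59. Itgb2, Itgax, Cd93, C1qbp, and Calr were within 2-fold in each comparison, and Cr2 was well above background only under CpG (33.5).

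**Figure D4:**
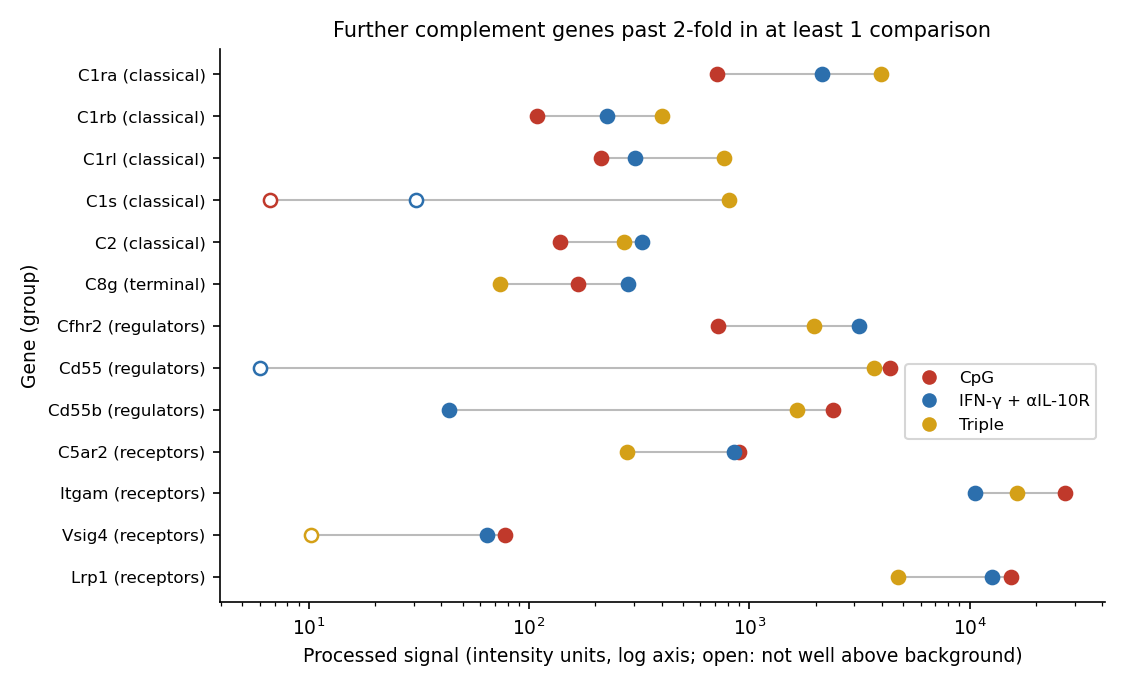
Processed signal (log axis) on the 3 arrays of 13 further complement genes past 2-fold in at least 1 comparison, 1 point per array, open where the signal was not well above background, with the group of each gene in brackets. The classical pathway genes have CpG as their lowest point, Cd55 and Cd55b have IFN-γ + αIL-10R as theirs, and C5ar2, Vsig4, Lrp1, and C8g have Triple as theirs. Each gene is shown by its brightest probe, and the other C8g probe was lowest under CpG.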

How the data were processed

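RNA of BMDMs from 3 conditions was hybridized to 1 array each. The scanner files that the authors deposited were written by Agilent Feature Extraction 10.10.1.1 and give probe positions on mm9. The deposited processed signal is an intensity from which the software had subtracted a background. A second deposited file holds log2 values, which equalled the log2 processed signals less a constant for each array (within 0.01 for 99.9962% of the probes).

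Control spots and spots marked as outliers (3.04% to 3.78%) were not used. The log2 signals of all spots of a probe were averaged, and arrays were scaled to their 75th percentiles over probes that were well above background on every array, since on average 45.1% of spots were well above background, under 50%. A gene was represented by its brightest probe, and other probes of members and of named genes were compared. A gene was past 2-fold up if it was well above background on the first array of a comparison and more than 2-fold higher, and down in the reverse case. A dim signal was raised to the lowest signal well above background on its array if it lay under it, and folds against a raised signal are lower bounds. No test was possible with 1 array per condition, whose number limits the precision.

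The members and lists were chosen with earlier results of these data known. All 9 members are named, then other complement genes past 2-fold in at least 1 comparison, except 1 that is not reported here, and the 3 genes nearest in pattern to the C1q chains, to C3, and to Cfb. Fcna, Cfp, Cfd, the regulators and receptors within 2-fold, and single markers, among them Ly6g, Elane, Camp, Clec9a, Zbtb46, and Xcr1, were named after their values were seen. Promoters are from RefSeq (GRCm38.p6), which was used for names and gene order too. The alternatives tried were normexp background correction (offset 50), other scalings, the deposited log2 table, other rules for probes and outlier spots, other filters on dim signals, and thresholds of 1.5-fold and 3-fold. The code for calls was run on simulated arrays with 33597 genes. In Triple against IFN-γ + αIL-10R, 100% of 95 genes changed by a log2 fold of 2 and of 105 genes changed by 3 were recovered, with 0 false calls. The changed genes were bright, their changes lay far past the threshold, and the noise was of the size seen between spots. The simulation therefore checks the code only, and does not cover dim genes, changes near 2-fold, or differences between cultures. The software was Python 3.11.15, numpy 2.4.6, pandas 2.3.3, matplotlib 3.10.9, R 4.3.3, and limma 3.58.1.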

Additional observations from a re-analysis of the deposited data

How the results depend on the processing

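No paired analysis was possible because there was a single array for each condition. Of 27 log2 folds of the 9 genes, 13 were past 2-fold, and 12 of these stayed past it under each of 13 alternatives, the exception being Serping1 in CpG against IFN-γ + αIL-10R under normexp. None of the 13 changed sign. Of the folds inside 2-fold, that of Serping1 in Triple against IFN-γ + αIL-10R passed the threshold under 5 alternatives (quantile scaling, scaling by the median or by the 75th percentile over all probes, the deposited log2 table, and the mean over probes) and ranged from 0.66 to 1.07. Scaling by the 75th percentile over all probes, by the median, and by the deposited table moved the median of all genes in Triple against IFN-γ + αIL-10R by 0.11, and spike-in scaling, with 5 of 10 spike-in probes, moved it by −0.13. The counts of the 9 genes changed by more than 1.5 times only with the threshold. At 3-fold, 1 was up in Triple against IFN-γ + αIL-10R, and in CpG against IFN-γ + αIL-10R 0 were up and 1 was down. At 1.5-fold, 5 were down in that comparison. Counts over all genes at these thresholds were not taken, so no share stands beside them. The counts of other complement genes depended more on dim probes. In Triple against IFN-γ + αIL-10R, 2 were up and 3 down when both arrays had to be well above background, 7 were up at 1.5-fold, and 2 were down at 3-fold. Over all genes, 842 were up and 1336 down with both arrays well above background, from 1187 and 1681. In Triple over CpG, 5 rather than 6 were up under normexp, without scaling, and with spike-in or Actb scaling. The count was also 5 with the mean over probes and with both arrays well above background. Over all genes, the 1370 up became 941, 1273, 1209, 1251, 1190, and 1012 under these settings in turn. In the same comparison, 3 were down under normexp, with the mean over probes, with both arrays well above background, and at 3-fold, and 9 without the filter. Over all genes, the 1529 down became 916, 1346, and 1140 under the first 3 of these settings and 3022 without the filter. In CpG against IFN-γ + αIL-10R, 7 were up and 9 down without the filter, and 3 were down under normexp and at 3-fold. Over all genes, 925 up and 1068 down became 2369 and 2502 without the filter, and 708 were down under normexp. The cause of these changes was not tested beyond what the thresholds and filters themselves set. Signals close to background limit Serping1, C1s, and Vsig4 most.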
